A study of Mus musculus with 13 samples.

Results

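The comparison is between hearts of mice that received an editing system for CaMKIIδ and hearts of mice that received a control virus, both after ischaemia and reperfusion (IR), in which blood supply is stopped for a time and then restored. Its members are the 4 libraries titled IR-Edit and the 3 titled IR-Virus control, 7 of the 13 libraries of the series, compared over every gene tested. All mice were male and wild type on C57Bl6. In both groups IR and injection were done at 12 weeks and whole hearts were collected at 17 weeks of age, and the difference the labels give is what was injected: a functional CaMKIIδ editing system in IR-Edit, a control virus in IR-Virus control. The labels do not say which virus was used, whether the editing system was itself carried by a virus, which promoter drove it, at what dose, or how much of Camk2d was edited, and they give no date or hour of collection, so a difference in either cannot be told apart from the injection. The other 6 hearts (3 Sham, 3 IR without injection, same ages) enter the estimate of the spread and serve as a reference for levels. Hearts are numbered as in the titles. A number is not stated to be a mouse of its own, so the p-values below measure the spread between these samples.

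CaMKIIδ is the main cardiac form of the calcium/calmodulin-dependent protein kinase II. Calcium-loaded calmodulin switches it on, and phosphorylation or oxidation of its regulatory segment keeps it active after calcium has fallen. In heart muscle it is known to phosphorylate the ryanodine receptor, phospholamban and sodium and calcium channels, and to drive class IIa histone deacetylases out of the nucleus, which frees the transcription factor MEF2. A base edit swaps individual bases and need not alter how many transcripts a gene yields.

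The measure was the number of reads per gene. Total counts of the 7 libraries ran from 20634820 to 25555144. The mitochondrial genome gave 32.8% ± 3.23 of the counts in IR-Edit (SD, n = 4) and 33.2% ± 2.16 in IR-Virus control (SD, n = 3), a difference of -0.43 percentage points (two-sided exact permutation test over 35 splits, p = 0.857, where the smallest possible p is 0.0286). Heart muscle genes (Myh6, Actc1, Tnnt2, Tnni3, Myl2 and Ryr2) stood at or above the 99.8th percentile of genes tested in these hearts. On the first principal component of the 7 libraries the IR-Virus control hearts lay at -19.6, -22.7 and -17.5 and IR-Edit hearts 1 to 4 at -0.20, 25.7, -1.43 and 35.8. IR-Edit hearts 2 and 4 thus stood apart from hearts 1 and 3 of their group on this component, and results that rest on hearts 2 and 4 are given as such. Hearts 1 and 3 were not alike in all respects. On the second component IR-Edit heart 3 lay at -39.4 and the others between -7.08 and 18.2. Heart 3 also had the lowest total count, the fewest genes detected (22255) and the largest mitochondrial share (37.35%) of the 7. The median SD of log2 CPM was 0.17 in IR-Edit and 0.14 in IR-Virus control. CPM, the read count scaled to a common library size, is the level used throughout. It compares a gene between hearts, not genes of different length with each other.

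Camk2d, which encodes the edited kinase, was not called. It lies on chromosome 3 of mm10 at 126596302-126846326 on the plus strand. The IR-Virus control hearts were at 221, 197 and 234 CPM and the IR-Edit hearts at 210, 225, 248 and 211 CPM, so the groups overlapped. The log2 fold change, IR-Edit minus IR-Virus control throughout, was 0.04 ± 0.11 (SE), with an adjusted p of 0.896. Its sign turned without IR-Virus control heart 2 (-0.022) or IR-Edit heart 3 (-0.011). Read counts per gene do not show whether bases were changed. Camk2a, Camk2b and Camk2g, which encode the other subunits of the kinase, had log2 fold changes of 0.15, -0.05 and -0.10 (adjusted p = 0.394, 0.842 and 0.598). That of Camk2b turned to 0.053 without IR-Virus control heart 2.

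Of 15 tested CaMKII genes and calmodulin partners, 1 rose: Camk2n1, which encodes a small protein that inhibits CaMKII. Camk2n1 stood at 25.4, 24.9 and 28.5 CPM in IR-Virus control and 36.1, 40.6, 34.3 and 44.6 CPM in IR-Edit. Every IR-Edit heart was above every other heart of the series, where the highest Sham value was 29.8 CPM. The log2 fold change was 0.57 ± 0.097 (SE, adjusted p = 0.00812 by edgeR). It did not pass without IR-Virus control heart 1 (adjusted p = 0.0524). Over all genes tested 2.02% were called, so 1 of 15 (6.67%) is a single gene above a low background.

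Over the 15690 genes tested, 317 passed an adjusted p of 0.05 (2.02%): 151 were higher (0.962%) and 166 lower (1.06%) in IR-Edit. Unadjusted, 2380 genes had a p under 0.05. The called genes had a median absolute log2 fold change of 0.75, against 0.14 over all genes tested, and 107 changed at least 2-fold (58 higher, 49 lower). In 316 of the 317 the CPM values of the 2 groups did not overlap; over all genes tested that held for 13.9%. In 217 of the 317 (68.5%) all 4 IR-Edit hearts lay outside the range of the other 9 hearts of the series, 116 above and 101 below it, against 3.47% of all genes tested. The number of calls depended on single hearts. It was 96, 122 and 114 without IR-Virus control heart 1, 2 or 3, and 477, 146, 434 and 177 without IR-Edit heart 1, 2, 3 or 4.

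**Figure D1:**
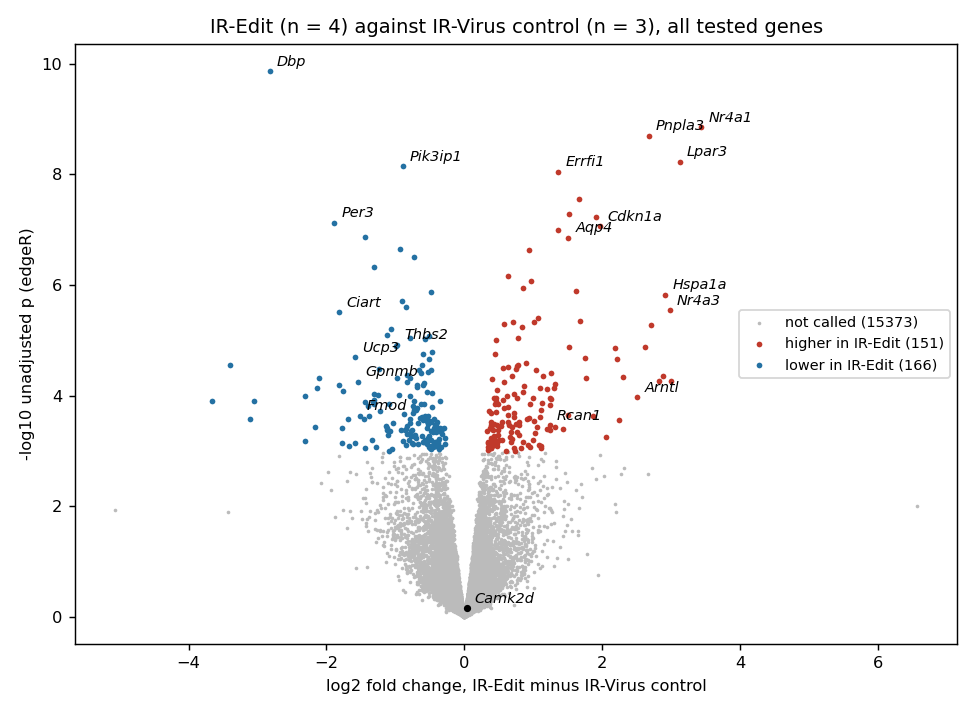
Log2 fold change (IR-Edit minus IR-Virus control, x axis) against -log10 of the unadjusted p (y axis) for each gene tested, with 151 genes called higher in red, 166 called lower in blue and the rest in grey. Dbp, at -2.82, and Nr4a1, at 3.44, are the outermost labelled points on each side by p, and Camk2d sits near 0.

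The daily clock gave the largest share of called genes of any list. In heart muscle as elsewhere, the proteins BMAL1 (gene Arntl) and CLOCK or NPAS2 bind E-boxes and switch on the Per and Cry genes, whose products then repress them. REV-ERB proteins (Nr1d1, Nr1d2) repress Arntl, and the transcription factors Dbp, Tef and Hlf carry the rhythm to further genes through D-boxes, where Nfil3 opposes them. The level of these genes therefore depends on the hour at which a heart is taken, which the labels do not give. Of 15 core clock genes 7 were called (46.7%), 2 higher and 5 lower, and of 17 clock output genes 8 (47.1%), 2 higher and 6 lower. Ciart is in both lists. The background was 2.02%, which also holds for the lists below. All lists were chosen with earlier results of these data known. A share above the background, here and below, may partly reflect that choice.

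The promoters of a few of these genes are shown because genes of the clock moved in opposite directions and its factors bind known motifs. Each sequence is the 250 bases before a RefSeq transcription start (GRCm38.p6), on the gene's strand, with motif matches in capitals. Searched on both strands were the E-box CACGTG, the D-box TTANGTAA and TNGGTCA. The last is looser than the element that REV-ERB and ROR receptors bind, since its N admits any base. A match to it, such as TTGGTCA or TCGGTCA in Arntl, need not be such an element. No match overlapped another in the windows shown. Ciart (chr3:95882229-95882478, minus strand) held 3 E-boxes, Per3 (chr4:151044666-151044915, minus) 2 D-boxes and 1 TNGGTCA on the opposite strand, and Arntl (chr7:113207215-113207464, plus) 2 copies of TNGGTCA.
Ciart: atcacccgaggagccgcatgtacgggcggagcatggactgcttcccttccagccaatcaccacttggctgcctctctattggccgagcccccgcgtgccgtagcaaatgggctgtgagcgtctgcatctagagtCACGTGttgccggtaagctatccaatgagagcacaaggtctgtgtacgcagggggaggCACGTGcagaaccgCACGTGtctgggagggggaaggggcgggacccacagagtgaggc
Per3: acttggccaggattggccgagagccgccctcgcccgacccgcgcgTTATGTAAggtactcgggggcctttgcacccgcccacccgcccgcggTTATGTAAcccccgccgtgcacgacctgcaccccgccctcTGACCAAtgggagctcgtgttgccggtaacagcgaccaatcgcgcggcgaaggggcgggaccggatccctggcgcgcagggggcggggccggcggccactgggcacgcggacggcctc
Arntl: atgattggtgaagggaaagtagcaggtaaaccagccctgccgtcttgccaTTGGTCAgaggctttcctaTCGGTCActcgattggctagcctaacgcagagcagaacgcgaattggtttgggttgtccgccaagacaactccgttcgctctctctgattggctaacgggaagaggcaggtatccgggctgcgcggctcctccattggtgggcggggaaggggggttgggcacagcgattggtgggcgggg
An E-box was in 5 of the 11 promoters of clock genes lower in IR-Edit (Ciart, Bhlhe41, Tspan4 and both promoters of Tef) and in 6.02% of all 32851 mouse promoters of the table over the same length. A TTANGTAA was in 1 of these 11 (Per3) and in 2.06% of all. TNGGTCA was in 3 of the 4 promoters of clock genes higher in IR-Edit (both of Arntl, and Nfil3), in 3 of the 11 of those lower (Cry2, Per3 and 1 of Tef) and in 9.19% of all. The windows of Arntl overlap and hold the same copies, which are thus counted in both. The E-box was also in 3 of 9 promoters of early response genes that rose (Dusp1, Klf4 and Klf6, 33.3%). Per2 and Sik1 had no entry. Dbp held none of these motifs in this window. A match is a string of letters in a short window, not a measured binding site.

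Dbp, on chromosome 7 at 45705088-45710203, had the smallest p of all genes. It stood at 46.1, 44.9 and 34.4 CPM in IR-Virus control and at 7.09, 5.02, 7.66 and 4.01 CPM in IR-Edit. Sham hearts ran from 25.3 to 35.1 and IR hearts from 30.0 to 38.1 CPM, so the IR-Edit hearts were below every other heart. Dbp fell by 2.82 ± 0.18 on the log2 scale (SE), 7.06-fold (adjusted p = 2.13e-06). Per3, a period gene, fell from 50.1, 63.6 and 45.7 CPM to 13.4, 12.5, 19.97 and 11.98 (log2 fold change -1.89 ± 0.20, adjusted p = 0.000116). Ciart, a repressor of BMAL1 and CLOCK, fell from 6.89, 12.1 and 6.57 CPM to 2.34, 2.599, 2.48 and 2.31 (-1.81 ± 0.25, adjusted p = 0.00173). Per2 stood at 14.1, 32.8 and 14.0 CPM in IR-Virus control and 5.04, 5.20, 8.69 and 6.47 in IR-Edit (-1.69 ± 0.36, adjusted p = 0.0257). IR-Virus control heart 2 was the high one for Per2, Ciart and Per3, as was Sham heart 1 in its own group.

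Tef and Hlf, the relatives of Dbp, fell with it, by 1.12 ± 0.17 and 1.33 ± 0.26 (adjusted p = 0.00342 and 0.0165). Nr1d2, or REV-ERBβ, fell from 171, 189 and 192 CPM to 99.0, 91.2, 133 and 85.5 (-0.85 ± 0.12, adjusted p = 0.00152). Nr1d1, or REV-ERBα, had a similar log2 fold change of -0.89 ± 0.24 but did not pass (adjusted p = 0.0711). Bhlhe41, another repressor of E-box genes (-0.94), Cry2 (-0.79) and the tetraspanin gene Tspan4 (-1.44) fell (adjusted p = 0.000231, 0.00979 and 0.000156). For Per1, Cry1 and Clock the log2 fold changes were 0.41, 0.26 and 0.60 (adjusted p = 0.539, 0.62 and 0.0701).

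Arntl moved the other way, on chromosome 7 at 113207465-113314126. It stood at 6.01, 1.43 and 6.27 CPM in IR-Virus control and at 27.3, 27.7, 22.6 and 26.8 CPM in IR-Edit, where the highest of the other 9 hearts was at 8.33. The log2 fold change was 2.51 ± 0.48, a 5.70-fold difference (adjusted p = 0.0155). Its partner gene Npas2 rose from 3.02, 1.68 and 3.28 CPM to 7.94, 9.59, 6.57 and 10.2 (1.68 ± 0.24, adjusted p = 0.0023). Nfil3 rose by 0.75 ± 0.13 (adjusted p = 0.00823). Sik1, a salt-inducible kinase that adjusts the clock after light and is also induced by cyclic AMP, rose from 17.3, 15.04 and 14.7 CPM to 59.6, 38.5, 70.8 and 66.8 (1.91 ± 0.19, adjusted p = 0.000101).

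For Dbp, Per3, Ciart and Arntl the range of the 4 IR-Edit hearts was smaller than the gap to the nearest IR-Virus control heart. Dbp, Per3, Ciart, Tef, Nr1d2, Bhlhe41, Tspan4, Npas2, Nfil3 and Sik1 passed whichever of the 7 hearts was left out. Arntl did not pass without IR-Virus control heart 1 or 2 (largest adjusted p 0.0638), Cry2 without IR-Virus control heart 2 (0.0573), Hlf without IR-Virus control heart 2 or IR-Edit heart 2 (0.0961), and Per2 without IR-Virus control heart 2 or IR-Edit heart 2 or 4 (0.145). Exons of Dbp, Nr1d1 and Tspan4 overlap those of Sphk2, Thra and Chid1 on the other strand. Whether the counting used strand is not given, so reads of such a pair cannot be told apart. Over all the genes picked for naming, exons of 43 of 131 overlap those of another annotated gene on either strand, and the same limit holds for each of them.

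**Figure D2:**
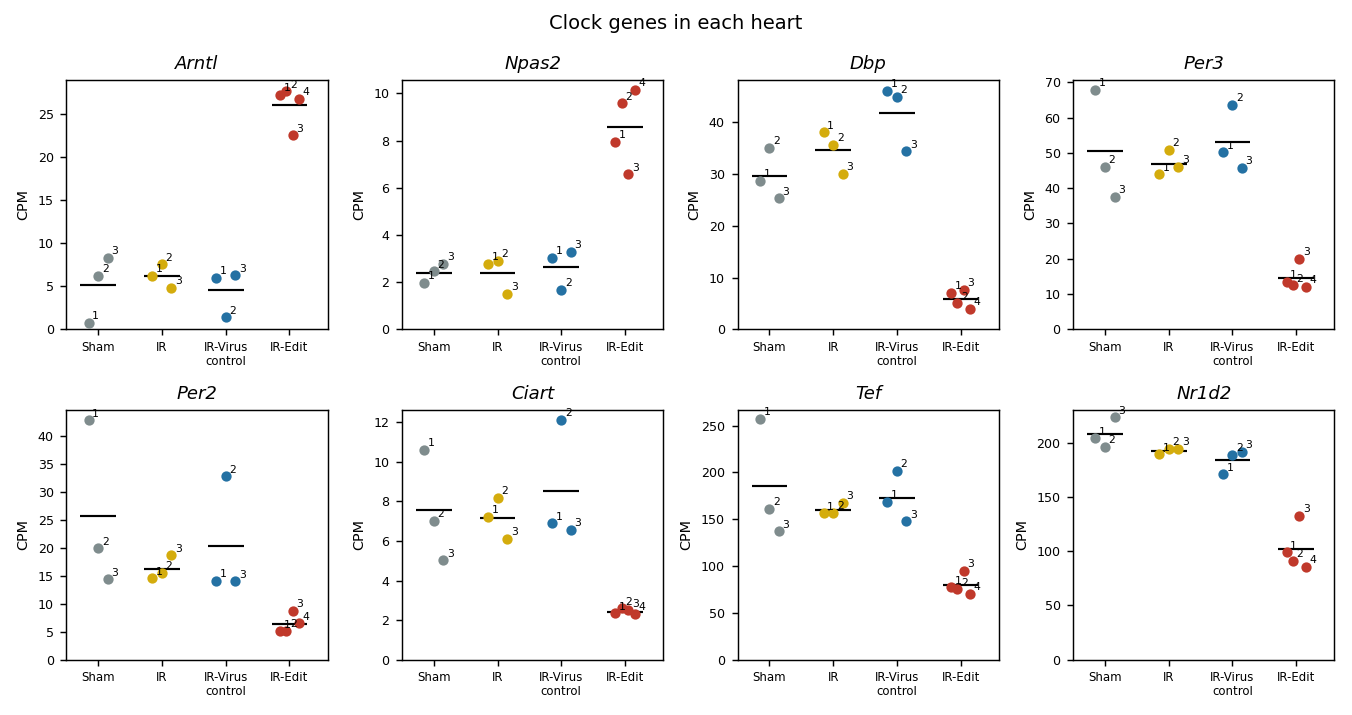
CPM (y axis) of 8 clock genes in each heart of the 4 groups (points, numbered as in the titles; bar, group mean). The IR-Edit hearts lie above all others for Arntl and Npas2 and below all others for the 6 further genes.

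Immediate early genes, the transcription factors and regulators that cells switch on within minutes of a stimulus without making new protein first, were mostly higher in IR-Edit. Of 24 tested, 9 rose and 1 fell (41.7% called, against 2.02% over all genes), and 21 of 24 had a positive log2 fold change. Their median was 0.62, against -0.0077 over all genes tested. Summed over the list, IR-Edit hearts held 513 to 831 CPM and the other 9 hearts 326 to 391. Because libraries come from whole hearts, more RNA per cell cannot be told apart from more cells that make it, here and below.

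Nr4a1, an orphan nuclear receptor, had the largest positive log2 fold change of all called genes. On chromosome 15 at 101254269-101274795, it stood at 4.10, 2.98 and 3.07 CPM in IR-Virus control and at 31.2, 24.3, 38.5 and 53.04 CPM in IR-Edit. Sham and IR hearts ran from 2.89 to 6.11 CPM. The log2 fold change was 3.44 ± 0.26, or 10.8-fold (adjusted p = 1.04e-05). Its relative Nr4a3 rose from 1.67, 1.85 and 2.61 CPM to 9.53, 9.68, 18.3 and 27.1 (2.98 ± 0.41, adjusted p = 0.00165). Atf3, a stress-induced transcription factor, rose from 1.35, 2.27 and 1.89 CPM to 6.83, 6.90, 10.7 and 23.4 (2.70 ± 0.39, adjusted p = 0.00246). Heart 4 was the highest IR-Edit heart for all 3.

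The AP-1 transcription factor is built from Fos and Jun proteins, and its members did not move alike. Fos stood at 1.75, 1.01 and 1.26 CPM in IR-Virus control and 5.27, 3.58, 4.55 and 11.04 in IR-Edit, a rise of 2.19 ± 0.35 (adjusted p = 0.00464). Fosl2 rose from 22.9, 23.1 and 21.8 CPM to 53.2, 52.2, 63.7 and 89.0 (1.51 ± 0.15, adjusted p = 0.000101). Fosl1 fell by 0.98 ± 0.17 from a low level of 2.51, 2.604 and 2.31 CPM to 1.11, 1.30, 1.604 and 1.05 (adjusted p = 0.00979), and its exons overlap those of Ccdc85b on the other strand. Jun and Junb had log2 fold changes of 0.50 and 0.51 and Egr1 0.46 (adjusted p = 0.15, 0.341 and 0.344). For Jun heart 4 of IR-Edit, at 71.8 CPM, was well above hearts 1 to 3 at 39.7, 44.9 and 40.3.

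Krüppel-like factors formed a second set of early genes that rose. Klf4 stood at 24.3, 24.9 and 23.7 CPM in IR-Virus control and 39.5, 42.4, 52.99 and 52.3 in IR-Edit (0.95 ± 0.11, adjusted p = 0.000231). Klf2, a flow-induced factor of endothelium, rose by 1.003 ± 0.19 and Klf6 by 0.40 ± 0.071 (adjusted p = 0.0155 and 0.00979). For Klf2, Sham heart 1, at 30.9 CPM, lay within the IR-Edit range of 30.7 to 36.3. Nr4a1, Nr4a3, Atf3, Fos, Fosl2, Fosl1 and Klf4 passed whichever heart was left out. Klf2 did not pass without any 1 of the IR-Virus control hearts (largest adjusted p 0.0756), and Klf6 not without IR-Virus control heart 1 (0.0707).

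MAPK feedback genes are induced by growth factor signalling and dampen it. Of 14 tested, 4 rose (28.6%, against 2.02% over all genes): Errfi1, Dusp1, Dusp8 and Dusp6. Dusp1 is also among the early genes counted above. Errfi1, an inhibitor of the EGF receptor family, rose from 14.5, 13.3 and 14.3 CPM to 40.1, 29.6, 34.0 and 40.7 (1.36 ± 0.12, adjusted p = 2.35e-05). The phosphatase genes Dusp1, Dusp8 and Dusp6 rose by 0.63 ± 0.13, 0.68 ± 0.16 and 0.39 ± 0.095 (adjusted p = 0.0189, 0.041 and 0.0452). For Dusp1, Sham heart 1, at 40.5 CPM, lay within the IR-Edit range of 37.4 to 48.0. Errfi1 passed whichever heart was left out. Each Dusp gene was lost without any 1 of the IR-Virus control hearts, and Dusp8 and Dusp6 also without IR-Edit heart 2 or 4 (largest adjusted p 0.088, 0.153 and 0.217 for Dusp1, Dusp8 and Dusp6). Exons of Dusp1 overlap those of Ergic1 on the other strand.

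Genes under class IIa histone deacetylases and MEF2, the arm that CaMKII is known to release, had 5 members higher and 1 lower of 25 tested. That is 24.0% called, against 2.02% over all genes. The 5 were Nr4a1, Nr4a3, Klf4, Klf2 and Klf6, each an early gene counted above. The 1 lower member was Tcap, which encodes telethonin, the cap of titin in the Z-disc. Tcap stood at 743, 775 and 610 CPM in IR-Virus control and 396, 438, 400 and 471 in IR-Edit (-0.74 ± 0.15, adjusted p = 0.0205). Sham hearts ran from 498 to 780 and IR hearts from 463 to 705 CPM. Tcap did not pass without IR-Virus control heart 1 or 2 or IR-Edit heart 2 (largest adjusted p 0.101). The list's median was 0.13. The deacetylase and MEF2 genes themselves (Hdac4, Hdac5, Hdac7, Hdac9, Mef2a, Mef2c and Mef2d) had log2 fold changes from -0.22 to 0.28 and none passed.

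Heat shock genes, which encode chaperones under the control of heat shock factors, rose in part. Of 20 cold-inducible and heat shock genes 4 rose and 1 fell (25.0%, against 2.02% over all genes). In 19 the log2 fold change was positive, and the median was 0.27. Hspa1a, the inducible HSP70 gene on chromosome 17 at 34969190-34972156, stood at 0.398, 0.546 and 0.379 CPM in IR-Virus control (9 to 13 reads) and 2.56, 1.79, 5.12 and 4.05 in IR-Edit (40 to 100 reads). It rose by 2.91 ± 0.38 (adjusted p = 0.000987). Hspa1b, its near-identical neighbour at 34956436-34959238, rose by 2.30 ± 0.41 (adjusted p = 0.00968). How reads were divided between the pair is not given, so the split is uncertain. Dnajb1 and Dnaja1, which encode HSP40 partners of HSP70, rose by 1.07 ± 0.15 and 0.85 ± 0.16 (adjusted p = 0.00211 and 0.0137). Exons of Dnaja1 overlap those of Smu1 on the other strand.

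The promoter of Hspa1a is shown because GAANNTTC, the paired unit of the element that heat shock factors bind, was searched in these genes on both strands. It was in 3 of the 7 promoters of the 4 genes (Hspa1a, Hspa1b and Dnaja1) and in 6.69% of all promoters over the same 250 bases. The windows of Hspa1a and Hspa1b are near-identical and hold the same match. The windows of Dnaja1 without a match overlap each other, so the 7 are not independent of each other. The match of Hspa1a (chr17:34972157-34972406, minus strand, GRCm38.p6) is in capitals, 104 bases before the start.
Hspa1a: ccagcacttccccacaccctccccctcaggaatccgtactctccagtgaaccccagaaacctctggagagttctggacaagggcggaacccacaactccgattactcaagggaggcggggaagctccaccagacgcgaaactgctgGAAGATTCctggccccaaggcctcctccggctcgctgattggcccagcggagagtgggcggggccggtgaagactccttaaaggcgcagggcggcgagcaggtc
Cirbp, a cold-inducible RNA-binding protein that also cycles with body temperature, fell by 0.76 ± 0.17, from 38.8, 31.6 and 35.02 CPM to 22.5, 19.6, 21.5 and 19.5 (adjusted p = 0.0301). Rbm3, its relative, had a log2 fold change of 0.26 (adjusted p = 0.465). Hspa1a and Dnajb1 passed whichever heart was left out. Hspa1b was lost without IR-Virus control heart 3 (adjusted p = 0.0564), Dnaja1 without IR-Virus control heart 1 or 3 (largest adjusted p 0.0926), and Cirbp without any 1 IR-Virus control heart or IR-Edit heart 2 or 4 (0.153). In the fit of the 7 libraries alone 8 members of the list rose and 1 fell.

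**Figure D3:**
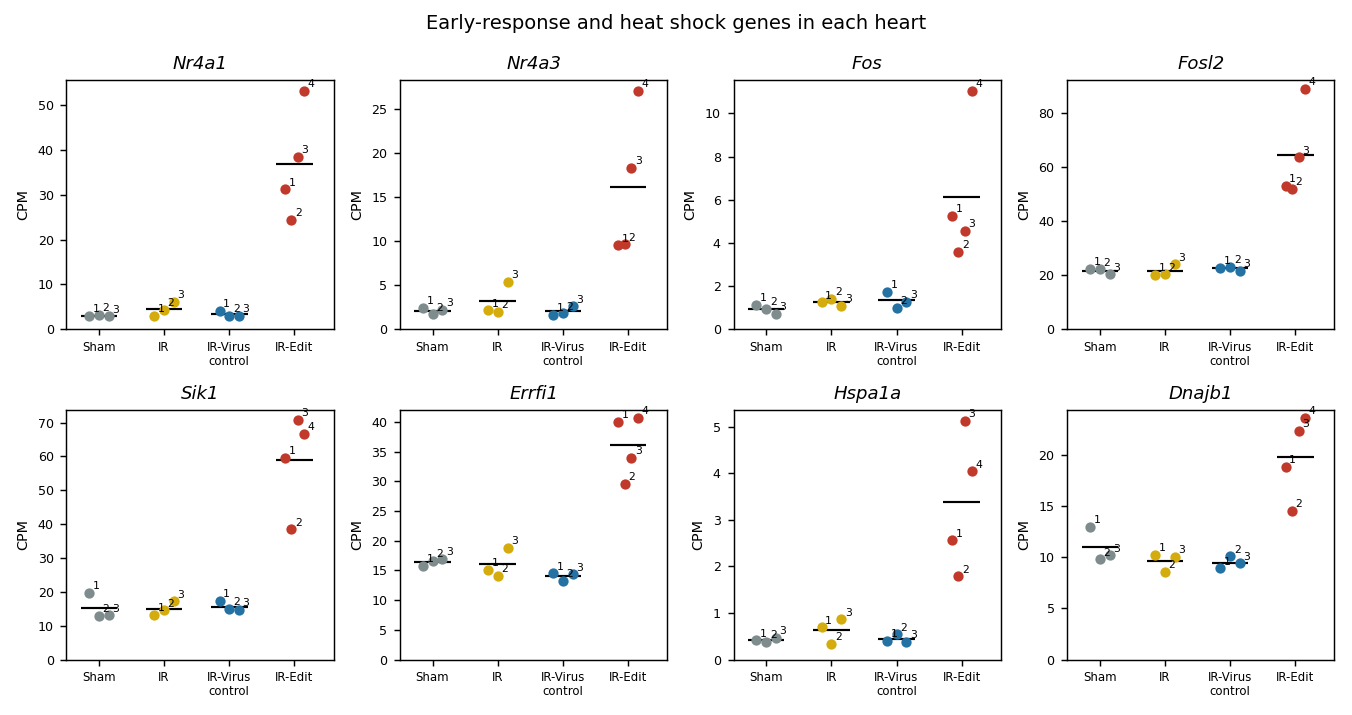
CPM (y axis) of 8 early-response and heat shock genes in each heart (points, numbered as in the titles; bar, group mean). All 4 IR-Edit hearts lie above the other 9 hearts in each panel, with heart 4 highest for Nr4a1 at 53.04 CPM and heart 3 for Hspa1a at 5.12 CPM.

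Further stress pathways held few calls, to be set beside 2.02% called over all genes tested. In the unfolded protein and integrated stress response 2 of 26 rose: Atf4, the factor that this response translates (0.55 ± 0.12, adjusted p = 0.0266), and Manf, a protein secreted from a stressed endoplasmic reticulum (0.56 ± 0.11, adjusted p = 0.0162). Among NRF2, metallothionein and p53 targets 1 of 20 rose, the cell cycle inhibitor gene Cdkn1a (p21). Cdkn1a stood at 7.28, 6.93 and 6.78 CPM in IR-Virus control and 26.1, 25.4, 18.3 and 39.5 in IR-Edit (1.97 ± 0.21, adjusted p = 0.000122), with no other heart above 8.70. Among 20 muscle ubiquitin ligase and FOXO genes 2 rose. Ddit4 (REDD1), an inhibitor of mTORC1, stood at 10.8, 12.8 and 10.1 CPM in IR-Virus control and 41.4, 36.2, 42.9 and 43.2 in IR-Edit (1.86 ± 0.39, adjusted p = 0.0241), but 1 Sham heart was at 39.7. Fbxo40, a muscle F-box protein, rose by 0.48 ± 0.11 (adjusted p = 0.0343). Cdkn1a passed whichever heart was left out. Ddit4, Atf4 and Fbxo40 were lost without any 1 IR-Virus control heart (largest adjusted p 0.116, 0.11 and 0.141), Atf4 also without IR-Edit heart 2, and Fbxo40 also without IR-Edit heart 2 or 4. Manf, whose exons overlap those of Rbm15b and Dcaf1, was lost without IR-Virus control heart 1 or 2 or IR-Edit heart 2 (0.0881).

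Cardiac stress genes split the IR-Edit hearts. Of 17 tested, 1 rose, Rcan1, while 13 had a positive log2 fold change and the median was 0.55. Nppa, the atrial natriuretic peptide gene, stood at 154, 146 and 153 CPM in IR-Virus control and at 98.9, 304, 55.9 and 422 CPM in IR-Edit hearts 1 to 4. Hearts 1 and 3 were below and hearts 2 and 4 above every IR-Virus control heart. The log2 fold change was 0.55 ± 0.49 (adjusted p = 0.64). Myh7, the beta myosin heavy chain, had the same order, with 829, 650 and 725 CPM in IR-Virus control and 523, 1952, 499.6 and 2002 CPM in IR-Edit (0.76 ± 0.43, adjusted p = 0.418). For Nppb, the brain natriuretic peptide gene, the IR-Virus control hearts were at 161, 111 and 157 CPM and the IR-Edit hearts at 208, 376, 116 and 446 (1.001 ± 0.44, adjusted p = 0.301). Ankrd1, a stretch-sensing ankyrin repeat protein, had 2402, 1932 and 2665 CPM against 3083, 6313, 2649 and 7536 (1.07 ± 0.28, adjusted p = 0.0697). Myh6, the alpha myosin heavy chain, was lowest in IR-Edit hearts 2 and 4, at 12159 and 11550 CPM, with the other 5 hearts from 16030 to 17968 (-0.25 ± 0.15, adjusted p = 0.45).

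Rcan1, an inhibitor of calcineurin that calcineurin and NFAT themselves induce, was the 1 called gene of 16 in the calcineurin list too. It stood at 81.2, 66.4 and 76.7 CPM in IR-Virus control and 124, 241, 90.9 and 250 in IR-Edit. The log2 fold change was 1.24 ± 0.27 (adjusted p = 0.0283). All IR-Edit hearts were above all others, heart 3 by least. Rcan1 was lost without any 1 IR-Virus control heart and without IR-Edit heart 2 or 4 (largest adjusted p 0.121), and in the fit of the 7 libraries alone. The calcineurin subunit and Nfat genes had log2 fold changes between -0.28 and 0.16.

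Calcium cycling and excitation genes, some of whose products CaMKII acts on, gave no call by edgeR: 0 of 24 passed, 5 had an unadjusted p under 0.05, and DESeq2 also called 0. Their median was -0.016. Atp2a2, the calcium pump SERCA2a, stood at 13539, 13824 and 13622 CPM in IR-Virus control and 12676, 10046, 13402 and 9639 in IR-Edit (-0.26 ± 0.11, adjusted p = 0.31), again lowest in hearts 2 and 4. Ryr2, the ryanodine receptor, had a log2 fold change of -0.10 ± 0.10, and Pln, phospholamban, -0.04 ± 0.13 (adjusted p = 0.69 and 0.927). Casq1, a calsequestrin of skeletal muscle, had the smallest p (0.80 ± 0.25, adjusted p = 0.128). Among 28 sarcomere genes Tcap was the 1 called, and the median was 0.040.

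Ion channel genes had 3 of 27 members higher (11.1%, against 2.02% called over all genes) and a median of -0.12. Hcn4 encodes a pacemaker channel and Kcna5 the potassium channel Kv1.5. Hcn4 rose from 12.1, 14.6 and 11.1 CPM to 23.3, 24.1, 21.99 and 17.8 (0.79 ± 0.17, adjusted p = 0.0266). Kcna5 rose from 9.99, 11.2 and 7.83 CPM to 19.0, 20.6, 21.3 and 24.5 (1.14 ± 0.20, adjusted p = 0.0096). Kcna5 was lost without IR-Virus control heart 3 (adjusted p = 0.0619) and Hcn4 without IR-Virus control heart 1 or 3 or IR-Edit heart 2 (largest adjusted p 0.127). With DESeq2 the list had 3 higher and 5 lower.

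Matrix genes showed no common direction. Of 47 activated fibroblast and matricellular genes 1 rose and 2 fell (6.38%, against 2.02% over all genes). In 23 the log2 fold change was positive and in 24 negative, and the median was -0.012. Thbs2, a thrombospondin that limits vessel growth and matrix proteases, fell from 40.1, 41.0 and 39.6 CPM to 25.7, 15.2, 24.5 and 16.3 (-0.98 ± 0.15, adjusted p = 0.00439). Fmod, or fibromodulin, a proteoglycan of collagen fibres, fell from 22.4, 8.19 and 16.8 CPM to 6.60, 4.03, 4.04 and 7.20 (-1.52 ± 0.32, adjusted p = 0.0241). Adamts4, a protease that cuts proteoglycans, rose from 1.07, 0.294 and 1.09 CPM, or 27, 7 and 26 reads, to 3.04, 3.99, 1.604 and 5.02 CPM (2.06 ± 0.47, adjusted p = 0.0364). Of 31 collagen and crosslinking genes, Col11a1, a fibrillar collagen of cartilage, was the 1 called. It fell from 1.79, 0.882 and 1.56 CPM to 0.408, 0.269, 0.673 and 0.324 (-1.77 ± 0.42, adjusted p = 0.0411). Col1a1, Col3a1 and Postn, genes of scar matrix, had log2 fold changes of -0.26, -0.33 and 0.45 (adjusted p = 0.67, 0.52 and 0.70).

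Thbs2 passed whichever heart was left out. Fmod was lost without IR-Virus control heart 1 or 3 or IR-Edit heart 2 (largest adjusted p 0.148). Col11a1 was lost without IR-Virus control heart 1 or 3 or IR-Edit heart 1, 2 or 4 (0.2), and Adamts4 without any 1 IR-Virus control heart or IR-Edit heart 2 or 4 (0.149) and in the fit of the 7 libraries alone. Exons of Adamts4 overlap those of another annotated gene. Between libraries left out, the calls in the matricellular list ranged from 0 to 2 higher and 1 to 5 lower.

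Whether the difference between IR-Edit and IR-Virus control opposed the injury was described by setting it beside IR minus Sham, which shares no library with it. Of the 317 called genes 165 (52.1%) had an IR minus Sham value of the opposite sign, against 49.7% of all genes tested. The share was between 35.7% (without IR-Edit heart 3) and 64.75% (without IR-Virus control heart 2) when 1 heart was left out. Among the 57 called genes with an unadjusted p under 0.05 in IR against Sham, 41 were opposite: 26 higher in IR and lower in IR-Edit, and 15 lower in IR and higher in IR-Edit. Another 7 were higher and 9 lower in both. Over all tested genes with such a p (1307), 50.2% were opposite. No gene named in the next paragraphs passed an adjusted p of 0.05 in IR against Sham, and apart from Gpnmb, Dkk3, Pfkfb3 and Rcan1 they were chosen after their values were seen.

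Genes of macrophages and of the matrix were among the 26. Gpnmb, a glycoprotein of lipid-laden and repair macrophages, stood at 0.71 to 1.70 CPM in Sham, 2.56 to 4.99 in IR, 5.37, 4.24 and 3.87 in IR-Virus control and 1.15, 2.15, 1.34 and 1.54 in IR-Edit (log2 fold change -1.54 ± 0.28, adjusted p = 0.0108). The IR-Edit hearts were below both injured groups and overlapped Sham. Ptn, or pleiotrophin, a heparin-binding growth factor, stood at 2.33 to 2.98 CPM in Sham, 4.55 to 10.6 in IR, 8.48, 8.27 and 9.55 in IR-Virus control and 3.12, 3.23, 3.36 and 4.94 in IR-Edit (-1.26 ± 0.24, adjusted p = 0.0146). Dkk3, a secreted protein of the Dickkopf family that is also an atrial gene, stood at 6.01 to 16.9 CPM in Sham, 18.8 to 31.0 in IR, 32.4, 26.2 and 31.8 in IR-Virus control and 12.4, 16.4, 9.42 and 17.9 in IR-Edit (-1.10 ± 0.27). Its adjusted p of 0.05 lay at the threshold. It was lost without any 1 of the 7 hearts (largest adjusted p 0.187), in DESeq2 and with the filter of 1 CPM.

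Pfkfb3, an activator of glycolysis, had the same pattern, with 8.78 to 12.7 CPM in Sham, 14.9 to 17.8 in IR, 15.8, 16.9 and 15.7 in IR-Virus control and 9.16, 7.80, 8.44 and 9.10 in IR-Edit (-0.90 ± 0.12, adjusted p = 0.00124). Prg4, or lubricin, Abi3bp, a matrix protein, the arginine carrier Slc7a2, the fungal receptor Clec7a (Dectin-1) and the macrophage elastase Mmp12 were further genes of this kind, with log2 fold changes of -0.67, -0.84, -0.60, -0.85 and -1.82 (adjusted p from 0.0116 to 0.0423). Exons of Prg4 overlap those of Tpr, and exons of Mmp12 those of Mmp1b, on the other strand. In the opposite direction, Aqp4, a water channel, stood at 14.2 to 20.4 CPM in Sham, 6.501 to 11.1 in IR, 8.64, 10.1 and 9.05 in IR-Virus control and 25.9, 28.9, 27.4 and 23.2 in IR-Edit (1.51 ± 0.16, adjusted p = 0.000156). The IR-Edit hearts were above Sham as well. Mat2a, which makes S-adenosylmethionine, rose from 123, 147 and 132 CPM to 184, 172, 236 and 204 (0.57 ± 0.10, adjusted p = 0.0109), with Sham at 163 to 198.

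Genes that rose in IR-Edit and were higher in IR than in Sham included Rcan1, Fbn2, a fibrillin of growing tissue, Masp1, a protease of the lectin pathway of complement, and the integrin gene Itgb3. Fbn2 stood at 1.59 to 3.03 CPM in Sham, 3.47 to 6.52 in IR, 5.69, 3.07 and 5.77 in IR-Virus control and 8.87, 13.9, 8.33 and 15.01 in IR-Edit (1.25 ± 0.28, adjusted p = 0.0301). Masp1 stood at 15.6, 12.3 and 14.3 CPM in IR-Virus control and 18.9, 34.8, 19.4 and 41.5 in IR-Edit (1.03 ± 0.23, adjusted p = 0.0322), and Itgb3 had a log2 fold change of 0.79 ± 0.18 (adjusted p = 0.0343). Hearts 2 and 4 were highest for Fbn2 and Masp1, as for Rcan1. Pfkfb3 and Aqp4 passed whichever heart was left out. Gpnmb was lost without IR-Virus control heart 1 (adjusted p = 0.0736), Mmp12 without heart 3 (0.0657), and Ptn and Mat2a without heart 1 or 3 of that group (largest adjusted p 0.0657 and 0.0815). Prg4, Abi3bp, Slc7a2, Clec7a, Fbn2, Masp1 and Itgb3 were each lost without at least 3 of the hearts (largest adjusted p from 0.124 to 0.194).

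**Figure D4:**
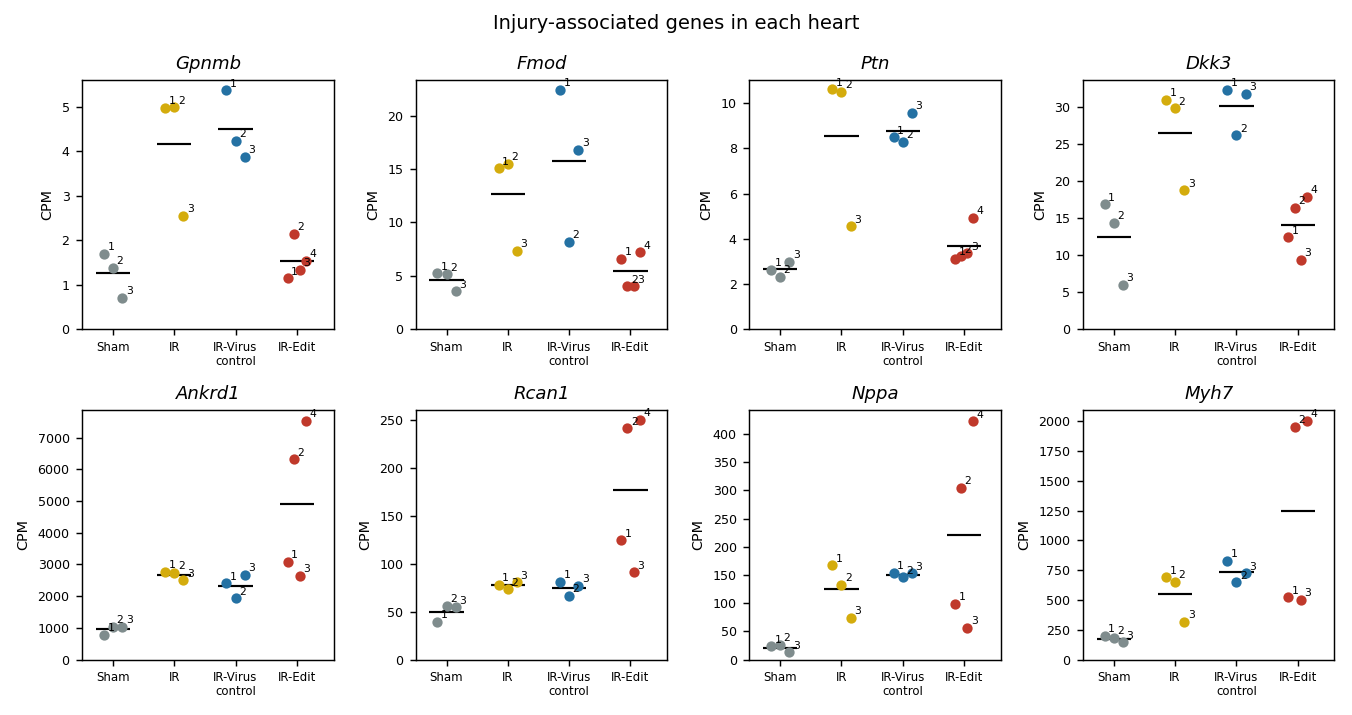
CPM (y axis) of 8 genes in each heart (points, numbered as in the titles; bar, group mean). In the top row IR-Edit hearts lie below the IR-Virus control hearts (Gpnmb 1.15 to 2.15 against 3.87 to 5.37 CPM). In the bottom row IR-Edit hearts 2 and 4 lie above all other hearts. Hearts 1 and 3 lie nearer the IR and IR-Virus control hearts there. For Rcan1 hearts 1 and 3 lie above them, at 124 and 90.9 CPM against at most 81.2. For Ankrd1 heart 1 does too, at 3083 CPM against at most 2775.

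Few members of the macrophage and cytokine lists were called, and the 3 that were fell, while Masp1 of the complement system, outside these lists, rose. Of 25 macrophage and monocyte genes 2 fell (8%, against 2.02% called over all genes). They were Gpnmb, and Ccr2, the receptor by which monocytes follow the chemokine CCL2 into tissue. Ccr2 stood at 8.76, 8.95 and 9.22 CPM in IR-Virus control and 4.04, 4.97, 3.16 and 3.20 in IR-Edit (-1.22 ± 0.25, adjusted p = 0.0211), and 4.52 to 9.13 in Sham. It was lost without any 1 IR-Virus control heart or IR-Edit heart 4 (largest adjusted p 0.0823). The list's median was -0.011, and its summed level was 312 to 431 CPM in IR-Edit and 382 to 403 in IR-Virus control. Among 27 chemokine, cytokine and NF-kB genes 1 fell, the adhesion molecule gene Vcam1 (-0.41 ± 0.098, adjusted p = 0.0435), which kept its call only without IR-Edit heart 3 among the hearts left out (largest adjusted p 0.175).

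Interferon-stimulated and antigen presentation genes lay mostly on the negative side with no member called by edgeR. Of 32 interferon-stimulated genes 25 were negative (median -0.20), 6 had an unadjusted p under 0.05, and DESeq2 called 1 lower. Iigp1, an interferon-induced GTPase, had 114, 154 and 133 CPM in IR-Virus control and 99.3, 65.4, 104 and 68.2 in IR-Edit (-0.67 ± 0.19, adjusted p = 0.0963). Of 23 MHC and antigen presentation genes 21 were negative (median -0.28), 6 had an unadjusted p under 0.05, and DESeq2 called 1 lower. Their sum ran from 601 to 793 CPM in IR-Edit and from 715 to 776 in IR-Virus control. For the interferon-stimulated genes the sums were 389 to 553 and 533 to 574 CPM, so the groups overlapped in both lists. Tap1, the peptide transporter, had 12.5, 11.1 and 11.8 CPM against 10.8, 6.95, 6.003 and 5.79 (-0.67 ± 0.18, adjusted p = 0.0838). With 1 heart left out, up to 3 interferon-stimulated and up to 2 antigen presentation genes were called lower. Neutrophil and mast cell genes (9 tested) and T, NK and B cell genes (9 tested) had 0 called by edgeR and by DESeq2, with 0 and 5 at an unadjusted p under 0.05.

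Genes of fatty acid use lay on the negative side. All 36 tested had a negative log2 fold change, with a median of -0.18, against -0.0077 over all genes tested. Of the 36, 3 fell (8.33%, against 2.02% over all genes). The hearts did not all share this shift. Summed over the list, IR-Edit hearts held 16113 to 21016 CPM and IR-Virus control hearts 18999 to 20131. The highest IR-Edit heart thus lay above every IR-Virus control heart. Ucp3, an uncoupling protein of muscle mitochondria that fatty acids induce, fell from 55.4, 57.6 and 60.1 CPM to 25.2, 12.1, 24.9 and 14.7 (-1.59 ± 0.26, adjusted p = 0.00621). Cpt1a, which admits long-chain fatty acids to mitochondria, fell from 69.8, 68.9 and 65.3 CPM to 48.0, 43.2, 50.2 and 42.2 (-0.57 ± 0.087, adjusted p = 0.00363). Lipe, or hormone-sensitive lipase, fell from 22.7, 18.0 and 18.2 CPM to 14.9, 11.3, 13.2 and 13.03 (-0.58 ± 0.11, adjusted p = 0.0112). Hearts 2 and 4 were the lowest IR-Edit hearts for all 3. Ucp3 and Cpt1a passed whichever heart was left out, and Lipe did not without IR-Virus control heart 1 (adjusted p = 0.0795). Between libraries left out, 2 to 11 members fell.

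The rest of energy metabolism gave 1 call. Of 28 TCA cycle and pyruvate oxidation genes 26 were negative, with a median of -0.089 and 0 called by edgeR or DESeq2 (1 at an unadjusted p under 0.05). Their sum ran from 14739 to 17826 CPM in IR-Edit and from 16660 to 17368 in IR-Virus control. For the nuclear-encoded respiratory chain genes the sums were 16753 to 20281 and 18785 to 19898 CPM, so the groups overlapped in both lists. Of 53 nuclear-encoded respiratory chain genes 42 were negative (median -0.054), and of 13 mitochondrially encoded genes 9 were negative (median -0.038). In both lists 0 members were called by edgeR or DESeq2 and 0 had an unadjusted p under 0.05. Within the latter, mt-Co3 stood at 85.5 CPM in IR-Edit heart 1 and at 17.2 to 28.2 in the other 6 hearts (0.71 ± 0.41, adjusted p = 0.437, and -0.11 without that heart). Pfkfb3 was the 1 called of 29 glycolysis, lactate and glycogen genes. Cytosolic ribosomal protein genes (42 tested, median -0.038) and energy metabolism regulators (18 tested, median -0.012) had 0 called by edgeR and DESeq2, with 1 and 2 at an unadjusted p under 0.05.

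Markers of other cell types that a whole heart holds were mostly uncalled, to be set beside 2.02% called over all genes tested. Among 24 endothelial and angiogenic genes Vegfa, the vascular growth factor that muscle also makes, rose from 234, 214 and 227 CPM to 288, 274, 281 and 290 (0.33 ± 0.074, adjusted p = 0.0307). It was lost without any 1 IR-Virus control heart or IR-Edit heart 2 or 4 (largest adjusted p 0.158). Atrial genes had 2 of 12 lower, Dkk3 and Nr2f2, a nuclear receptor of atrial and venous cells that passed whichever heart was left out (-0.48 ± 0.083, adjusted p = 0.00837). The atrial genes Sln, Myl7 and Myl4 had log2 fold changes of -1.43, -1.39 and -0.99 (adjusted p = 0.23, 0.26 and 0.35), and the list summed to 1032 to 1824 CPM in IR-Edit and 1331.5 to 1366.5 in IR-Virus control. Of 9 skeletal muscle genes Mylk2, a myosin light chain kinase, rose from 0.358, 0.420 and 0.337 CPM, or 8 to 10 reads, to 1.63, 4.03, 0.828 and 4.57 (2.89 ± 0.51, adjusted p = 0.0096). It was lost without IR-Virus control heart 1 or 3 (largest adjusted p 0.0614). Smooth muscle and pericyte (16), lymphatic endothelial (9), adipocyte (8), red blood cell (8) and neuron and Schwann cell genes (10) had 0 called by edgeR, with 6, 2, 2, 0 and 0 at an unadjusted p under 0.05; DESeq2 called 3 lower in the first and 1 lower in adipocyte genes. Smooth muscle and pericyte genes summed to 2716 to 2818 CPM in IR-Edit and 3005.5 to 3114 in IR-Virus control, with no overlap. Proliferation genes had 0 of 26 called by edgeR and DESeq2 and 3 at an unadjusted p under 0.05, with 19 positive and a median of 0.39. The part of cell make-up in the called genes was not tested.

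**Figure D5:**
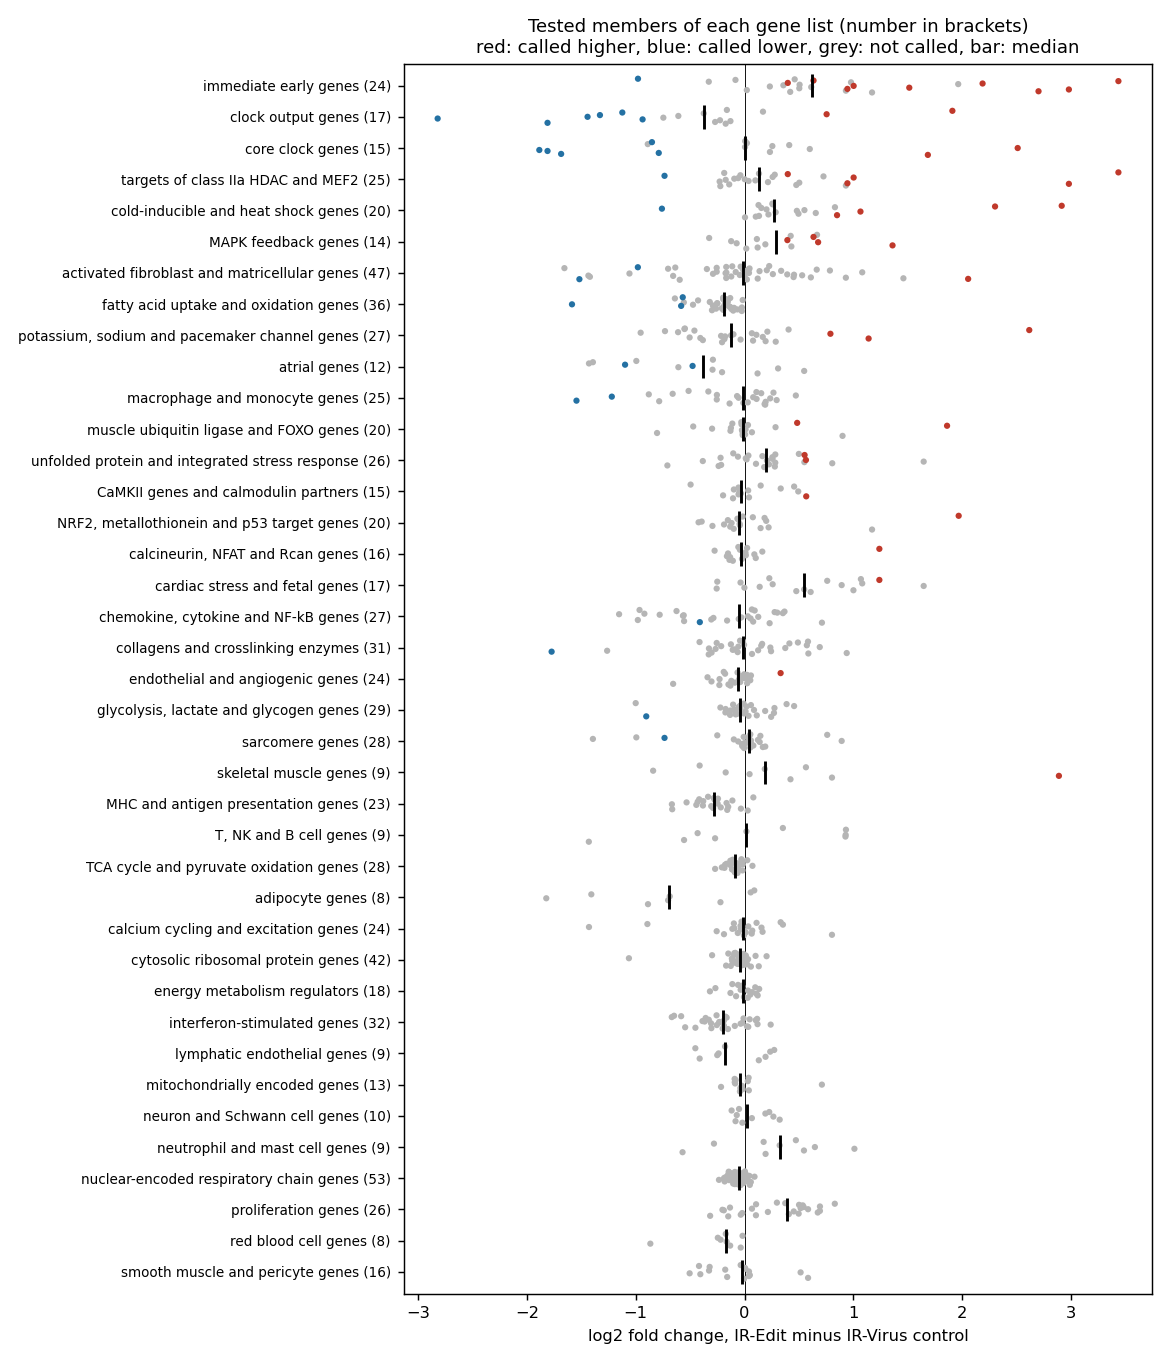
Log2 fold change (x axis) of every tested member (points) of the 39 gene lists (y axis, number tested in brackets); red points were called higher, blue called lower, grey not called, and the bar is the list's median. Early genes reach to 3.44 on the right, clock output genes to -2.82 on the left, and fatty acid genes all lie left of 0.

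Over all 39 lists 58 of 812 different genes tested were called (7.14%, against 2.02% over all genes), 33 higher and 25 lower, and 23 lists held at least 1. The lists were chosen with earlier results of these data known, so the 2 shares are not an independent comparison. The number was between 32 (without IR-Virus control heart 1) and 88 (without IR-Edit heart 3) with 1 heart left out, and 37 without IR-Virus control heart 3.

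Some of the largest and firmest differences lay outside these pathways. Lpar3, a receptor for lysophosphatidic acid, stood at 0.517, 0.252 and 0.673 CPM (13, 6 and 16 reads) in IR-Virus control and 5.23, 3.90, 3.83 and 3.96 CPM (74 to 141 reads) in IR-Edit, a rise of 3.13 ± 0.27 (8.73-fold, adjusted p = 2.23e-05). Pnpla3, a lipid droplet enzyme, rose from 1.31, 0.798 and 1.35 CPM to 6.12, 9.05, 7.35 and 7.12 (2.67 ± 0.21, adjusted p = 1.04e-05). Apold1, an early gene of endothelium, rose from 8.001, 7.22 and 7.37 CPM to 21.3, 18.9, 24.0 and 31.7 (1.67 ± 0.16, adjusted p = 6.22e-05). Pik3ip1, a brake on PI3 kinase, fell from 51.0, 47.8 and 44.0 CPM to 26.6, 25.1, 26.7 and 24.3 (-0.89 ± 0.077, adjusted p = 2.23e-05). In all 4 genes every IR-Edit heart lay outside the range of the other 9 hearts, and the call held whichever heart was left out.

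Syndig1, a synaptic membrane protein, and Gcgr, the glucagon receptor, rose by 2.82 ± 0.51 and 2.24 ± 0.48 (adjusted p = 0.0106 and 0.026) and were again highest in hearts 2 and 4. Syndig1 stood at 1.30, 3.45, 1.40 and 4.81 CPM and Gcgr at 1.67, 3.002, 0.621 and 3.52 in IR-Edit hearts 1 to 4. Inmt, a methyltransferase of small amines, Ubxn10, a protein of cilia, and Rp1, a microtubule protein of photoreceptors, fell by 1.78 ± 0.39, 1.45 ± 0.31 and 1.44 ± 0.28 (adjusted p = 0.0295, 0.0254 and 0.0165). Each of these 5 was lost without at least 3 of the 7 hearts (largest adjusted p from 0.0615 for Syndig1 to 0.175 for Inmt), and Gcgr, Inmt, Ubxn10 and Rp1 did not pass in the fit of the 7 libraries alone.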

How the data were processed

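RNA from whole mouse hearts was sequenced as mRNA libraries, per the labels' protocols. The authors deposited raw read counts per gene symbol (53278 symbols, 1 file a library). The submitters' processing notes list HISAT2 2.1.0, featureCounts 1.6.2, Trimmomatic 0.39, FastQC 0.11.8 and build mm10. The annotation and strand setting of featureCounts is not given in the sources used here.

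In edgeR 4.0.16 (R 4.3.3), TMM scaling and filterByExpr kept 15690 genes for testing. The quasi-likelihood test used group means over the 13 libraries (9 residual degrees of freedom), and the contrast IR-Edit minus IR-Virus control was adjusted after Benjamini and Hochberg over all genes tested; adjusted p under 0.05 is a call. SE values were derived from the log2 fold change and the F statistic. Alternatives were DESeq2's size factors and Wald test (DESeq2 1.42.0), other filters, a robust dispersion, voom with weights per group (limma 3.58.1), the title number as a block, a fit of the 7 libraries, and each heart left out. With 4 and 3 hearts the number of hearts, rather than depth, limits precision for most genes, while genes under 1 CPM rest on few reads. On simulated counts for this contrast (15492 genes) 96% of planted 2-fold and 99% of planted 4-fold changes were recovered, and 7.14% of the calls were false. Changes were planted only in genes with a mean of at least 1 CPM. Counts were drawn independently, with the same spread per gene in all groups. The split among the IR-Edit hearts was not simulated, so these shares do not give the power in the real data.

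Named were the CaMKII genes, 10 cardiac genes, the 12 largest called changes each way with a mean of at least 1 CPM and no overlap of the groups, the 10 smallest p, and up to 4 called members (or the member with the smallest p) of each list; 44 further genes were named after their values were seen. Some genes that this rule names are not reported here. The members and lists were chosen with earlier results of these data known. Positions come from GENCODE M21 (GRCm38, 15389 of 15690 symbols found). Promoter sequences are those of RefSeq (GRCm38.p6). No pair of libraries agreed within sampling noise.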

Additional observations from a re-analysis of the deposited data

Results flagged for a closer look

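In a group of 4 hearts, a value was marked when its gap to the nearest other heart took a share of the group's range above Dixon's 95% limit for 4 values. This was applied to IR-Edit for 132 measures, of which 6 were marked. Chance alone marks about 1 in 20 groups. Lpar3 was marked for IR-Edit heart 1 (5.23 CPM, next 3.96 CPM) and Arntl for heart 3 (22.6 CPM, next 26.8). Heart 1 stood out for mt-Co3 (85.5 CPM, next 28.2). Heart 4 stood out for Jun (71.8 CPM, next 44.9), Ptn (4.94 CPM, next 3.36) and S1pr1 (93.8 CPM, next 81.5).

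Arntl, Lpar3, Ptn and S1pr1 were called with all hearts, and for each the marked heart lay on the same side of IR-Virus control as the rest of its group. S1pr1, a receptor for sphingosine 1-phosphate on endothelium, stood at 52.2, 58.8 and 53.3 CPM in IR-Virus control. For mt-Co3 the sign of the log2 fold change turned from 0.71 to -0.11 without heart 1, and its annotated exon overlaps that of mt-Atp6. Arntl in heart 3 was the lowest IR-Edit value and still above the highest of the other 9 hearts, 8.33 CPM.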

How the results depend on the processing

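The 317 calls became 1018 without a filter (31973 genes tested, 306 shared), 517 with DESeq2 (313 shared), 316 with DESeq2's size factors, 308 with a filter of 1 CPM in 3 libraries, 307 with a robust dispersion, 350 with voom and 220 in the fit of the 7 libraries (188 shared); shared genes kept their sign. Whether a title number pairs hearts is not stated. In their deviations from the group means, same-numbered hearts correlated at 0.10, -0.064 and 0.099. Hearts of different number correlated at -0.19 to 0.101. So few pairs cannot decide whether hearts of the same number belong together. With the number as a replicate block, where IR-Edit heart 4 has no partner and drops out of the contrast, 159 were called (149 shared), and 106 in the 7-library fit with the block. Higher calls were 47.6% of all, against 54.1% and 60.4% in these fits and 57.5% without IR-Edit heart 2. With 1 heart left out the calls ran from 96 to 477, list members called from 32 to 88, and called genes opposite to IR minus Sham from 35.71% to 64.75% (the latter added after seeing the data). The cause was not tested.

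The difference in mitochondrial share lay between -1.95 and 0.599 percentage points with 1 heart left out, and turned to 0.29 without IR-Virus control heart 2, 0.096 without heart 3 and 0.599 without IR-Edit heart 4, and Camk2d to -0.022 without IR-Virus control heart 2 and -0.011 without IR-Edit heart 3. Reversals of uncalled genes were Camk2b without IR-Virus control heart 2 (0.053), mt-Co3 without IR-Edit heart 1 (-0.11, up to 0.95), Nppa with the block (-0.27, and -0.34 in the 7-library fit), Uchl1 likewise (-0.027 and -0.023), and Pln (0.048 and 0.049 with the block, 0.049 without IR-Virus control heart 3 and 0.064 without IR-Edit heart 4, down to -0.17). Dkk3, whose adjusted p rounds to 0.05, is left out of the counts that follow. Of 94 other named genes called, 40 passed whichever heart was left out and 33 in every alternative. Of these 94 the block lost 27, the 7-library fit 15, voom 7 and DESeq2 0. Dkk3 itself was lost in DESeq2 (adjusted p = 0.0536) and without any 1 of the 7 hearts.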

Other observations

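Outside the lists, genes of cyclic AMP, adenosine and acetylcholine signalling were among those called; they were chosen after their values were seen. Adcy1, a calcium-activated adenylyl cyclase, stood at 10.9, 11.7 and 10.52 CPM in IR-Virus control and 18.7, 24.3, 22.5 and 20.8 in IR-Edit (log2 fold change 0.97 ± 0.12, adjusted p = 0.000672). Adcy8, another calcium-activated cyclase, rose from 0.597, 0.588 and 0.758 CPM to 1.48, 1.79, 1.55 and 2.51 (1.499 ± 0.31, adjusted p = 0.0235). Pde4b, a phosphodiesterase that degrades cyclic AMP, rose by 0.46 ± 0.070 (adjusted p = 0.00364). Nt5e, the surface enzyme CD73 that makes adenosine, rose from 21.02, 19.6 and 19.9 CPM to 32.0, 30.9, 33.6 and 29.0 (0.64 ± 0.078, adjusted p = 0.000563). Ache, or acetylcholinesterase, rose from 2.55, 1.64 and 2.105 CPM to 6.53, 7.21, 4.55 and 7.44 (1.62 ± 0.21, adjusted p = 0.000915). Adcy1, Pde4b, Nt5e and Ache passed whichever heart was left out, and in each the IR-Edit hearts were above all other hearts of the series. Adcy8 was lost without any 1 IR-Virus control heart or IR-Edit heart 2 or 4 (largest adjusted p 0.117).

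Genes of lipid making and insulin signalling were also called. Gpam, which starts triglyceride synthesis, fell from 203, 236 and 193 CPM to 142, 156, 147 and 147 (-0.51 ± 0.078, adjusted p = 0.00342), and Mid1ip1, an activator of acetyl-CoA carboxylase, from 76.0, 92.5 and 65.0 CPM to 38.8, 36.5, 40.8 and 32.7 (-1.07 ± 0.16, adjusted p = 0.00273). Irs2, an insulin receptor substrate, Sgk1, a kinase under glucocorticoid and insulin control, and Ppp1r3c, which directs a phosphatase to glycogen, rose by 1.09 ± 0.26, 0.96 ± 0.19 and 0.78 ± 0.13 (adjusted p = 0.0424, 0.0172 and 0.00766). For Sgk1, Sham heart 1, at 63.9 CPM, lay within the IR-Edit range of 57.6 to 74.2. Gpam, Mid1ip1 and Ppp1r3c passed whichever heart was left out. Irs2 was lost without any 1 IR-Virus control heart or IR-Edit heart 4 (largest adjusted p 0.176), and Sgk1 without IR-Virus control heart 1 or 3 (0.0921).

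A few genes of myeloid cells and fibroblasts outside the lists, picked after their values were seen and with no count of how such genes moved as a group, are given next. C3ar1, the receptor of complement C3a, and Csf1, the macrophage growth factor, fell by 0.79 ± 0.15 and 0.59 ± 0.12 (adjusted p = 0.0149 and 0.0172). Lrrc15, a membrane protein of fibroblasts, fell from 35.2, 39.6 and 33.1 CPM to 21.96, 14.97, 23.8 and 9.79 (-1.03 ± 0.22, adjusted p = 0.0275). C3ar1 was lost without IR-Virus control heart 3 (adjusted p = 0.0794), Csf1 without heart 1 or 2 of that group (largest adjusted p 0.0946), and Lrrc15 without any 1 of its 3 hearts (0.109) and also without IR-Edit heart 2. Mylk4, a myosin light chain kinase, fell from 303, 335 and 311 CPM to 193, 128, 194 and 119 (-0.9953 ± 0.16, adjusted p = 0.0045) and passed whichever heart was left out. Abra, an actin-binding activator of the SRF pathway, rose from 33.0, 34.99 and 33.5 CPM to 53.1, 87.6, 52.3 and 126 (1.24 ± 0.25, adjusted p = 0.0177), but not without any 1 IR-Virus control heart or IR-Edit heart 2 (largest adjusted p 0.0957).

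The last genes given were also picked after their values were seen. They lie outside the endothelial and angiogenic list, where 1 of 24 was called and the median was -0.058. Sox7, a transcription factor of vessels, fell from 24.8, 24.8 and 21.5 CPM to 15.2, 14.0, 13.2 and 14.7 (-0.73 ± 0.084, adjusted p = 0.000287) and passed whichever heart was left out. S1pr1 rose by 0.62 ± 0.12 (adjusted p = 0.015) and the protease gene Adamts1 by 0.94 ± 0.20 (adjusted p = 0.0254). S1pr1 was lost without IR-Virus control heart 1 or 3 (largest adjusted p 0.0926), and Adamts1 also without IR-Edit heart 2 (0.137).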
